A study of Homo sapiens with 6 samples.

Results

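The ZNF genes of chromosome 19 were examined in SK-N-BE(2), a human neuroblastoma cell line, 48 h after infection with a lentivirus. Cells carried either the non-silencing control construct pLKO-NSC (the NSC group, n = 3) or pLKO-shBRG1, whose hairpin targets BRG1 (the shBRG1 group, n = 3), so infection and vector backbone were common to both groups. BRG1, the product of SMARCA4, drives SWI/SNF chromatin remodelling as its ATPase subunit. For each sample 200 ng of total RNA went onto 1 single-colour Affymetrix array. Members were all named genes whose symbol is ZNF followed by digits and an optional letter and that lie on chromosome 19 in the RefSeq annotation of GRCh38.p14. This gave 226 of 14883 named genes, each represented by its brightest probe set, and the other 37 of the 263 such genes in the annotation were not analysed here. All but 1 of the members, the transcribed pseudogene ZNF542P, are annotated as protein-coding.

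Most ZNF proteins bind DNA through tandem C2H2 zinc fingers, and chromosome 19 holds the largest human concentration of them, in clusters that grew by tandem duplication. Many also carry a KRAB domain, which recruits the corepressor TRIM28 and through it the H3K9 methyltransferase SETDB1, and many of their best known targets are retrotransposons. The clusters are themselves covered by H3K9 trimethylation and the heterochromatin protein CBX1 in many cell types. Close paralogs within a cluster can share stretches of sequence, so an array probe may also bind the transcript of a neighbouring copy.

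Values are log2 expression values after RMA (background correction, a common distribution for all arrays, and summary of the probes), so a level is given per probe set and levels of different genes are not compared as transcript amounts. The arrays had medians between 3.77 and 3.84 over all probe sets. The cultures are described as a triplicate without further detail, so the p-values reflect the spread among these 6 samples alone, and that spread may be technical. The level of SMARCA4 was not analysed here, and the groups rest on their labels. Of 10 adrenergic neuroblastoma markers 8 were measured, with NSC means from 7.60 (TH) to 10.96 (DBH). In shBRG1 5 of the 8 were lower and 0 higher (62.5% lower, background 7.19%): PHOX2A (-0.51), CHGA (-0.48), ISL1 (-0.44), HAND2 (-0.38) and CHGB (-0.30). All 8 were brighter than the median gene, and 11.9% of all genes at or above that level were lower. The summed level of the 8 was 75.9 to 76.2 in NSC and 74.3 to 74.5 in shBRG1, and the part of this in the results was not tested. CHGB lost its call on removal of any array but shBRG1 replicate 2, and ISL1 when its probe sets were averaged. The 4 measured of 7 Schwann and glial markers lay between 3.94 and 5.10, and 0 of them passed, with a summed level of 18.0 to 18.2 in NSC and 17.3 to 17.5 in shBRG1. The 2 measured of 6 stromal markers, DCN and LUM, were both higher in shBRG1 (0.44 and 0.39 on the log2 scale, with a summed level of 13.0 to 13.4 in NSC and 13.9 to 14.2 in shBRG1), and its part was not tested either. The LUM call was lost on removal of NSC replicate 2 or 3 or shBRG1 replicate 1 or 2. The 2 measured of 5 leukocyte markers, CD68 and CD14, had changes of -0.00 and 0.11 and did not pass.

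The ZNF genes of chromosome 19 had mostly positive, small changes in the cells with the BRG1 hairpin. Their median change, shBRG1 minus NSC, was 0.17 on the log2 scale (quartiles -0.00 and 0.31), against 0.01 over all 14883 named genes (-0.12 and 0.15), and 169 of the 226 (74.8%) had a positive change, against 51.1% of all genes. Tested with limma and an adjusted p of 0.05, 33 members rose and 6 fell, which left 187 that did not pass. That is 14.6% higher and 2.65% lower, beside a background of 9.78% higher and 7.19% lower among all named genes (17.0% in either direction). No member reached a 2-fold change (0 of 226, against 103 of 14883 genes), and the changes ran from -0.77 to 0.73 on the log2 scale.

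The excess of rises over the background varied with the array left out. Without shBRG1 replicate 2, 13 members rose, and their share of 5.75% was near the 5.64% of all genes in that fit. Without NSC replicate 2, 16 rose (7.08%, all genes 6.05%). The count was 20 without shBRG1 replicate 3 (8.85%, all genes 6.07%), 21 without shBRG1 replicate 1 (9.29%, all genes 6.31%), 22 without NSC replicate 3 (9.73%, all genes 7.09%) and 29 without NSC replicate 1 (12.8%, all genes 6.79%). Lower members numbered 2 to 5 in these fits (0.885% to 2.21%), where 4.66% to 5.77% of all genes were lower. They were 2 without NSC replicate 1, NSC replicate 3 or shBRG1 replicate 1, 3 without shBRG1 replicate 3 and 4 without shBRG1 replicate 2. The median change of the members stayed between 0.14 and 0.20 when any 1 of the 6 arrays was left out.

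The shift was also seen array by array. The median level over the 226 members was 5.69, 5.67 and 5.74 on the NSC arrays and 5.78, 5.90 and 5.80 on the shBRG1 arrays, so the groups did not overlap and shBRG1 replicate 2 stood highest. Over all named genes the same medians lay between 5.06 and 5.10 on every array, but the common distribution given to all arrays keeps such medians close. Over the 245 ZNF genes on other chromosomes the medians were 5.79, 5.62 and 5.78 in NSC. In shBRG1 they were 5.87, 5.89 and 5.85, so these groups did not overlap either. All 3 shBRG1 values lay above all 3 NSC values for 77 members (34.1%, background 20.3%) and below them for 12 (5.31%, background 15.3%). For ZNF genes on other chromosomes the shares were 31.4% above and 6.53% below.

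Brightness bears on these shares, because dim genes seldom pass. Among the 155 members at or above the median gene, 27 rose (17.4%) and 5 fell (3.23%), where 17.4% of all genes at that level rose and 11.9% fell. In this fit the share of bright members that rose equalled that of all bright genes, and the share that fell was lower. The 2 sets were not matched in level, with median levels of 6.18 for members and 6.96 for all bright genes. When the bright genes were fitted alone, 31% of members and 26.6% of all genes rose, and 4.52% and 16.4% fell. Among the 71 members below the median gene, 6 rose (8.45%) and 1 fell (1.41%), beside 2.19% and 2.50% of all dim genes. Median changes were 0.19 and 0.15 for bright and dim members, and 0.06 and -0.02 for all bright and all dim genes. The shares without overlap varied with level too. Of bright members 37.4% had all shBRG1 values above all NSC values and 7.1% below, near and under the 33.8% and 20.8% of all bright genes. Of dim members 26.8% lay above and 1.41% below, beside 6.71% and 9.7% of all dim genes.

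**Figure D1:**
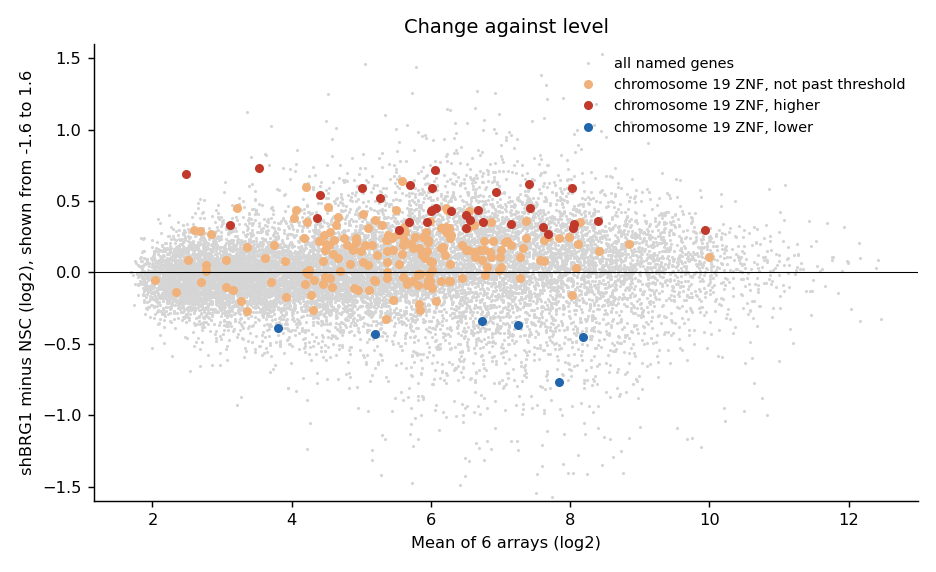
Change (shBRG1 minus NSC, log2) against the mean of the 6 arrays (log2) for the 226 chromosome 19 ZNF genes, over all 14883 named genes in grey. Coloured points lie mostly above 0 at all levels, with 33 genes past the threshold above and 6 below.

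The 245 measured ZNF genes on other chromosomes had 39 higher (15.9%) and 9 lower (3.67%), and a median change of 0.10. Of the 841 other genes of chromosome 19, 77 rose (9.16%) and 47 fell (5.59%), with a median of -0.02. The 14 measured chromosome 19 genes of the ZFP, ZSCAN, ZKSCAN, ZIM, ZIK and ZBTB families and PEG3 had a median change of 0.17, with 1 higher and 2 lower. The differences between these lists were not tested.

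**Figure D2:**
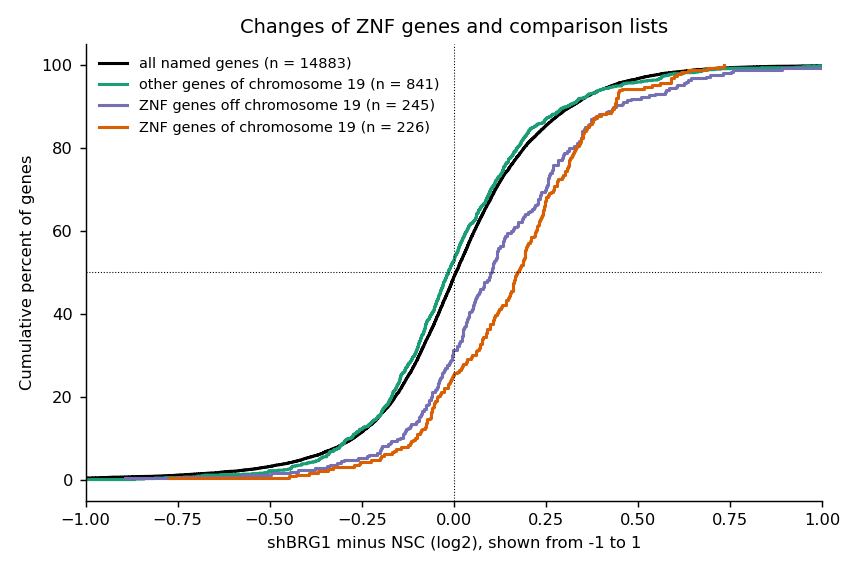
Cumulative percent of genes (vertical axis) against the change, shBRG1 minus NSC on the log2 scale, for 4 lists. The curve of the chromosome 19 ZNF genes crosses 50% at 0.17, that of ZNF genes elsewhere at 0.10, that of all named genes at 0.01 and that of other chromosome 19 genes at -0.02.

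ZNF814 and ZNF587B, which lie on either side of ZNF587 in the last cluster of the long arm, both rose. ZNF814 read 7.06, 7.12 and 7.12 in NSC and 7.68, 7.72 and 7.75 in shBRG1. The groups were far apart for their spread, and the gene was 1.53-fold higher (0.62, SE 0.06, adjusted p = 0.0013). ZNF587B read 4.64, 4.83 and 4.68 in NSC and 5.30, 5.30 and 5.32 in shBRG1 (0.59, SE 0.07, adjusted p = 0.0024). Both calls held in every refit in which the gene was tested at an adjusted p of 0.05 (each array left out, other scalings, filters and variance models).

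The 100 bases before the start site of both genes are shown because these promoters are near copies of each other. The sequences are RefSeq promoters of GRCh38.p14, written 5′ to 3′ on the strand of the gene, with matches to the motifs CACGTG (the E-box that MYC proteins bind) and CCGGAAG (the core of ETS factor sites, read as CTTCCGG on the other strand) in capitals. They and the promoters shown further on were picked after the values were seen.
ZNF814, chr19:57889038-57889137, minus strand: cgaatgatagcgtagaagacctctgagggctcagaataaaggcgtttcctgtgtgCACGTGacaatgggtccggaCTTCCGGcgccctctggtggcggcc
ZNF587B, chr19:57830199-57830298, plus strand: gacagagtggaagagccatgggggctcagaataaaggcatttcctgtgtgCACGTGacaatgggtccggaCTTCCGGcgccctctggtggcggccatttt
Over the tabled window from 250 bases before to 50 after the start, they shared an unbroken run of 73 identical bases, and both motifs lie within it. ZNF587, between them, read 5.49, 5.40 and 5.21 in NSC and 5.21, 5.39 and 5.50 in shBRG1 (0.00, SE 0.10, adjusted p = 1). ZNF417, the next measured gene beyond ZNF814, had a change of 0.31 that did not pass (adjusted p = 0.075). Both ZNF417 and ZNF587 are known for silencing endogenous retroviruses of the HERV-K group.

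The 2 largest rises were in the same cluster. ZNF471, a KRAB protein described as silenced by promoter methylation in several tumours, read 3.23, 3.28 and 2.98 in NSC and 3.89, 3.77 and 4.03 in shBRG1. It was 1.66-fold higher (0.73, SE 0.11, adjusted p = 0.0042), although all 6 values lay below the median of all named genes (5.09). ZNF135 read 5.59, 5.64 and 5.88 in NSC and 6.53, 6.51 and 6.23 in shBRG1, a 1.64-fold rise (0.72, SE 0.11, adjusted p = 0.0061). Neither gene's groups overlapped, which the choice of named genes required, and both calls held in every refit in which the gene was tested.

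Further rises that held in every refit in which they were tested came from other clusters. ZNF766 went from 7.77, 7.70 and 7.74 in NSC to 8.23, 8.46 and 8.30 in shBRG1 (0.59, adjusted p = 0.0032). ZNF431, a KRAB repressor known to act on the Hedgehog receptor gene PTCH1, went from 6.61, 6.61 and 6.73 to 7.19, 7.13 and 7.31 (0.56, adjusted p = 0.0035). ZNF506 read 5.49, 5.22 and 5.48 in NSC and between 5.90 and 6.11 in shBRG1 (0.61, adjusted p = 0.0067). In each of these 3 genes the lowest shBRG1 array stood above the highest NSC array, which their choice required. ZNF681 read 5.64, 5.93 and 5.61 in NSC and 6.20, 6.48 and 6.26 in shBRG1 (0.59, adjusted p = 0.013). With ZNF426 (0.45, adjusted p = 0.010) and ZNF561 (0.43, adjusted p = 0.0077), which lie close together on the short arm, these made 10 rises that no such refit removed.

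The remaining genes among the 12 largest rises were less stable. ZNF566 rose by 0.54 (adjusted p = 0.015), a call lost on removal of NSC replicate 2 (adjusted p 0.0086 to 0.052 over the alternatives). ZNF428 rose by 0.45 (adjusted p = 0.016), lost on removal of NSC replicate 2 or shBRG1 replicate 3 (0.0040 to 0.059). ZNF17 rose by 0.52 (adjusted p = 0.028), lost on removal of any array but NSC replicate 3 (0.0090 to 0.082). ZNF763 had one of the dimmest probe sets, at 1.91, 2.33 and 2.15 in NSC and 2.57, 3.21 and 2.68 in shBRG1. Its rise of 0.69 (SE 0.18, adjusted p = 0.039) was lost on removal of any array but shBRG1 replicate 1, and rests on values that may be background.

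ZNF792 was the member that fell most, and it had the smallest p of all 226. It read 8.25, 8.18 and 8.26 in NSC and 7.43, 7.48 and 7.45 in shBRG1. The 3 arrays of each group lay within 0.1 of each other, and the gene was 1.71-fold lower (-0.77, SE 0.06, adjusted p = 5.3e-04; up to 0.0066 over the alternatives). Its nearest measured member, ZNF30, went the other way, from 6.62, 6.26 and 6.48 to 6.81, 6.83 and 7.04 (0.44, SE 0.11, adjusted p = 0.034). The ZNF30 call was lost on removal of any array but NSC replicate 1, and after cyclic loess.

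The stretch before the ZNF792 start is given beside those of ZNF431 and ZNF460, promoters of genes that rose, to set the one stable fall beside them. Capitals mark the E-box and the ETS core as before, a GC box known to be bound by SP1 (GGGCGG), and a box known to be bound by NF-Y (CCAAT), on either strand.
ZNF792, chr19:34964230-34964329, minus strand: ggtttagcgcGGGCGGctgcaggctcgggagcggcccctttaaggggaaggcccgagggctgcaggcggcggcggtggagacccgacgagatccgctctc
ZNF431, chr19:21141940-21142039, plus strand: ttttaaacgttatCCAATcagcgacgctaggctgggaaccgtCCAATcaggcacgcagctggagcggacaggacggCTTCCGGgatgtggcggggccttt
ZNF460, chr19:57279882-57279981, plus strand: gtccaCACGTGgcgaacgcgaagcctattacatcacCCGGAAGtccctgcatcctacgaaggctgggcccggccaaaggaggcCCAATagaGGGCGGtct
ZNF792 holds 1 match in these 100 bases, a GC box. ZNF431 holds a CCGGAAG and 2 CCAAT matches, and ZNF460, whose rise did not hold in every refit, holds 1 each of all 4 motifs. These 3 picked promoters cannot show a difference between rises and falls. Over the wider window CCAAT was in 4 of 6 promoters of members that fell and 16 of 28 of those that rose. CCGGAAG was in 0 of 6 and 13 of 28, and in 45.1% of members that did not pass.

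The other falls were smaller. ZNF224, a KRAB repressor of the aldolase A gene and a partner of WT1, read 8.47, 8.27 and 8.46 in NSC and 7.89, 8.06 and 7.91 in shBRG1 (-0.45, SE 0.09, adjusted p = 0.012). This is the value of its brighter probe set, and the dimmer one had a change of -0.02, so the call was lost when the 2 were averaged (adjusted p = 0.16). ZNF536, a brain-expressed protein without a KRAB domain that represses retinoic-acid-induced neuronal differentiation, read 7.56, 7.32 and 7.41 in NSC and 7.08, 6.95 and 7.15 in shBRG1 (-0.37, SE 0.09, adjusted p = 0.029). The ZNF536 call was lost on removal of NSC replicate 1 or 3 or shBRG1 replicate 1 or 2. ZNF441 (-0.43) and ZNF823 (-0.34), which are neighbours on the short arm, fell together. The ZNF441 call was lost on removal of NSC replicate 1 or 3 or shBRG1 replicate 1 or 3, and the ZNF823 call without each array in turn. ZNF628 (-0.39) was dim, with a mean of 4.01 in NSC, and its call was lost on removal of any array but NSC replicate 2.

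**Figure D3:**
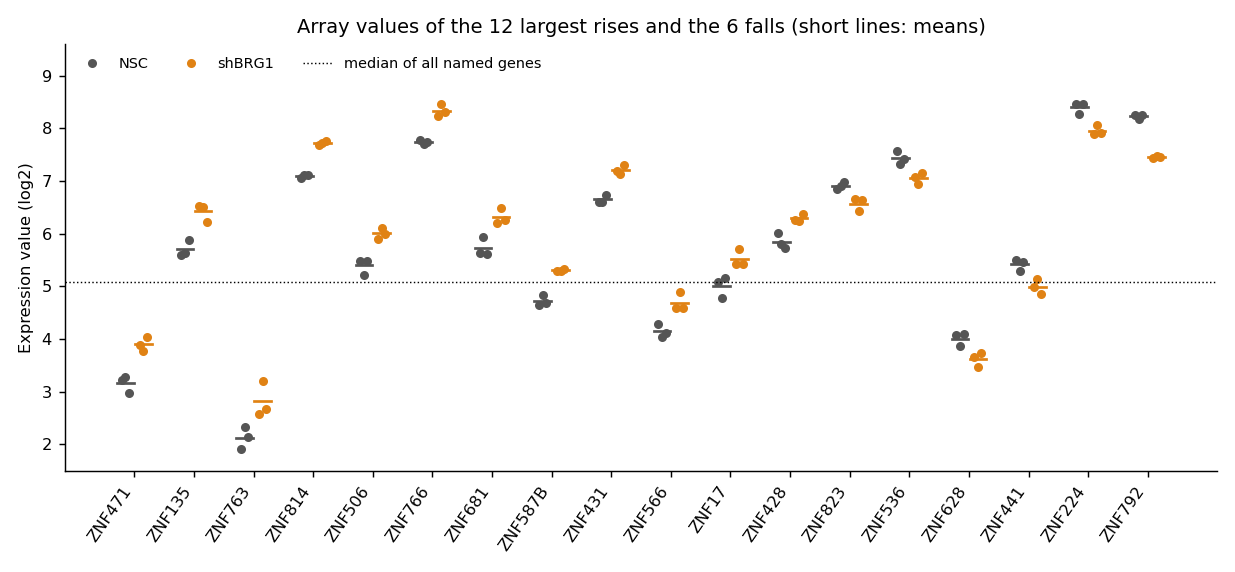
Log2 expression values of each array for the 12 members with the largest rise and the 6 that fell, with short lines for group means and a dotted line at the median of all named genes (5.09). The 18 genes were chosen among those whose 3 shBRG1 points lie wholly above or wholly below the 3 NSC points. ZNF471, ZNF763, ZNF566 and ZNF628 lie below the dotted line.

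Along the chromosome, members were grouped into clusters wherever neighbouring ZNF genes of the annotation lay within 1 Mb of each other, which gave 9 clusters with at least 5 measured members, 216 of the 226 in all. The median change was positive in each of the 9, between 0.10 and 0.25. The calls were not even. The last cluster, from ZNF628 to ZNF446, had 58 measured members and 14 of the 33 rises (24.1% of its members, background 9.78%), with 1 fall and a median of 0.15. The 28 other measured genes between its ends had 1 rise, 2 falls and a median of 0.04.

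Within that last cluster the rises sat among members that did not pass. Beside ZNF471, ZNF135, ZNF814, ZNF587B and ZNF17, the rises were ZNF586 (0.40), ZNF749 (0.37), ZNF460 (0.36), ZNF324B (0.35), ZNF8 (0.34), ZNF551 (0.34), ZNF544 (0.31), ZNF772 (0.30) and ZNF581 (0.27). ZNF8, known to bind SMAD1 and repress BMP responses, read 7.88, 7.83 and 7.97 in NSC and 8.23, 8.28 and 8.20 in shBRG1 (adjusted p = 0.015). ZNF17, ZNF749 and ZNF772 are consecutive members and all rose, as did ZNF544 and ZNF8. ZNF274, the member known to recruit SETDB1 to the coding ends of other ZNF genes, lies in this cluster and had a change of -0.09 (SE 0.09, adjusted p = 0.57). Apart from ZNF471, ZNF135, ZNF814 and ZNF587B, the calls of this cluster depended on single arrays. ZNF581 and ZNF772 lost theirs without each of the 6 arrays in turn, ZNF749 on removal of any but NSC replicate 2, ZNF17 on removal of any but NSC replicate 3, ZNF551 and ZNF544 on removal of any but NSC replicate 1, and ZNF586 on removal of any but shBRG1 replicate 1. ZNF460 lost its call on removal of NSC replicate 2 or 3 or shBRG1 replicate 1 or 2, ZNF8 on removal of NSC replicate 1 or 2 or shBRG1 replicate 1 or 2, and ZNF324B on removal of NSC replicate 1 or shBRG1 replicate 1 or 2. After cyclic loess, ZNF581, ZNF749, ZNF772, ZNF551 and ZNF586 did not pass, and ZNF581 did not after centring either.

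The cluster from ZNF557 to ZNF846 on the short arm had the highest median, 0.25 over 14 measured members. It had 3 rises (21.4%, background 9.78%) and 0 falls. The 3, ZNF426, ZNF121 and ZNF561, are consecutive measured members. ZNF426 read 7.25, 7.28 and 7.10 in NSC and 7.66, 7.74 and 7.56 in shBRG1. ZNF561 read 5.83, 5.74 and 5.80 in NSC and 6.30, 6.22 and 6.13 in shBRG1. ZNF121, one of the 5 brightest members, read 9.72, 9.77 and 9.87 in NSC and 10.18, 10.02 and 10.06 in shBRG1 (0.30, adjusted p = 0.034), a call lost on removal of any array but NSC replicate 3, and after centring or cyclic loess. The 32 other measured genes between the ends of this cluster had 1 rise and 3 falls, with a median change of 0.00.

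The cluster from ZNF653 to ZNF791 was the one with more falls than rises. Of its 23 measured members ZNF441 and ZNF823 fell (8.7%, background 7.19%) and ZNF763 rose (4.35%, background 9.78%). It had 13 positive changes and a median of 0.14. The 4 other measured genes between its ends had 2 rises, 0 falls and a median of 0.20. The cluster from ZNF807P to ZNF792 had 5 measured members, among them ZNF30 and ZNF792 with opposite calls. In the cluster from ZNF554 to ZNF77, 0 of 5 members passed.

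The cluster from ZNF101 to ZNF254 lies on the short arm towards the centromere and holds many primate-expanded copies. Of its 31 measured members ZNF506, ZNF681, ZNF431 and ZNF85 rose (12.9%, background 9.78%) and 0 fell (median 0.17). The 5 other measured genes between its ends had 1 rise, 0 falls and a median of 0.08. ZNF85 (0.32, adjusted p = 0.048) lost its call on removal of any array but NSC replicate 1, and after centring or cyclic loess. ZNF91 and ZNF93, which are known to silence SVA and LINE-1 retrotransposons respectively, lie here. ZNF91 read 6.32, 6.20 and 6.18 in NSC and 6.27, 6.32 and 6.31 in shBRG1, overlapping groups (0.06, SE 0.07, adjusted p = 0.61). ZNF93 spread widely in NSC, at 6.63, 6.90 and 7.27, against 7.02, 7.13 and 7.13 in shBRG1 (0.16, SE 0.15, adjusted p = 0.54). ZNF274, ZNF91, ZNF93, ZNF417 and ZNF587 lie outside the naming rule and were chosen for these known roles.

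The cluster from ZNF565 to ZNF573 had the largest share of positive changes among the 9, 21 of 24 members (87.5%), and a median of 0.21. The 8 other measured genes between its ends had a higher median, 0.37, with 1 rise and 0 falls. ZNF566, ZNF569 (0.44) and ZNF850 (0.31) rose (12.5% of members, background 9.78%) and 0 fell. ZNF569 lost its call on removal of NSC replicate 2 or 3 or shBRG1 replicate 1 or 2, and ZNF850 on removal of any array but shBRG1 replicate 3, and after centring or cyclic loess. ZNF146, a protein made almost wholly of zinc fingers, was the brightest member of all, at 9.97, 9.89 and 9.96 in NSC and 10.09, 10.04 and 10.02 in shBRG1. Its values did not overlap, but the change of 0.11 did not pass (SE 0.06, adjusted p = 0.31).

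From ZNF575 to ZNF296, ZNF428 and ZNF404 (0.38) rose and ZNF224 fell among 24 members (median 0.22). That is 8.33% higher and 4.17% lower, beside backgrounds of 9.78% and 7.19%. The ZNF404 call was lost on removal of any array but shBRG1 replicate 1. The 20 other measured genes there had 0 rises, 1 fall and a median of 0.05. From ZNF175 to ZNF331, 3 of 32 members rose (9.38%, near the background of 9.78%), 0 fell and the median was 0.16. The 14 other genes there had 0 calls and a median of 0.01. The 3 rises were ZNF766, ZNF175 (0.43), known to restrain HIV-1 replication in macrophages, and the dim ZNF83 (0.33). ZNF175 lost its call on removal of NSC replicate 1 or 2 or shBRG1 replicate 1 or 2, and ZNF83 on removal of any array but NSC replicate 3, and after centring. Outside the 9 clusters, ZNF780A (0.35) and ZNF473 (0.35), a factor of histone pre-mRNA processing, rose and ZNF536 fell. ZNF780A lost its call on removal of NSC replicate 1 or 2 or shBRG1 replicate 2 or 3, and ZNF473 on removal of any array but NSC replicate 1, and after centring or cyclic loess. ZNF614 (0.20, adjusted p = 0.24) and ZNF134 (0.15, adjusted p = 0.22), also among the 5 brightest members, did not pass.

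**Figure D4:**
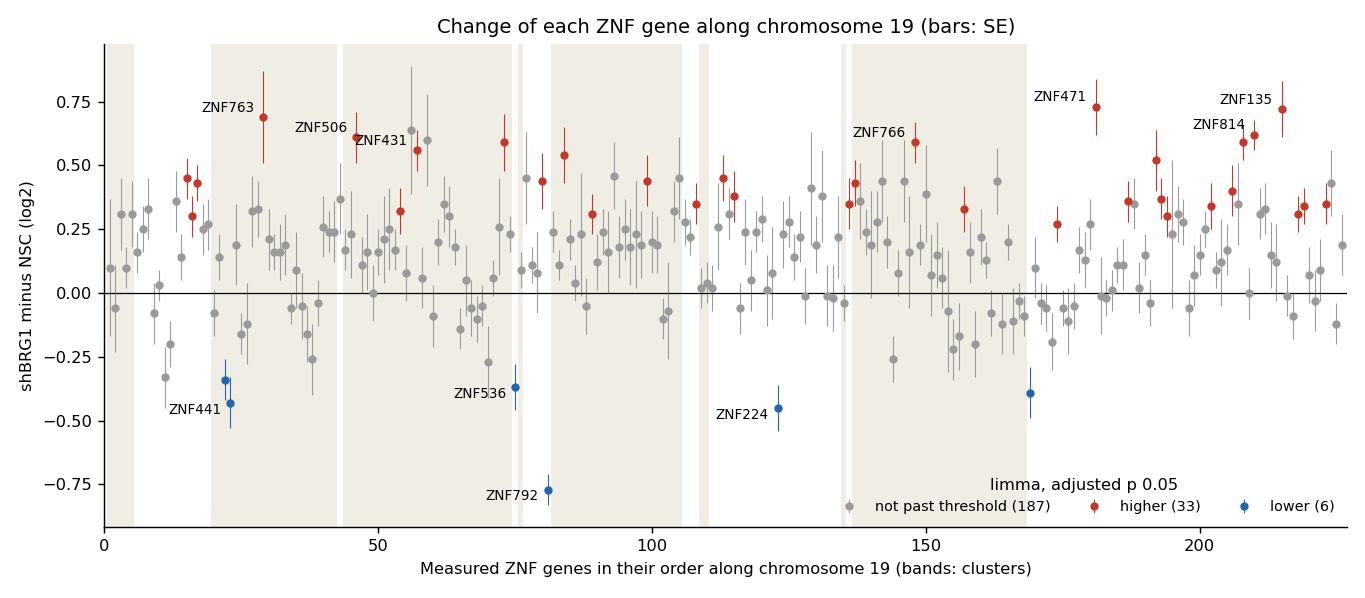
Change of each of the 226 members (shBRG1 minus NSC, log2; bars are SE) in their order along chromosome 19, with alternating bands for clusters. Rises (33) are spread over the order and most frequent in the last cluster, where 14 lie, and the 6 falls are scattered, with ZNF792 lowest at -0.77.

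Neighbours resembled each other only weakly. Across 210 pairs of consecutive members of a cluster, the changes had a Pearson r of 0.16, beside 0.10 across 840 pairs of consecutive other genes of chromosome 19. All pairs come from the same 6 arrays and the pairs overlap, so these values are descriptions. Of 7 consecutive pairs in which both members passed, 6 went the same way, and ZNF30 with ZNF792 was the exception. Because 33 members rose and 6 fell, most pairs of called members would go the same way anyway.

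Several members start back to back. In 7 pairs of measured members the start sites point away from each other and lie 22 to 328 bases apart, 6 of the pairs in the cluster from ZNF565 to ZNF573. Both changes were positive in 6 of the 7 pairs. Taken singly, 74.8% of all members and 87.5% of those in that cluster were positive, which is not a share of pairs. Only ZNF569 of the 14 genes passed. Its partner ZNF570 had a change of 0.20 (adjusted p = 0.31). ZNF566 starts 66 bases from the antisense transcript ZNF566-AS1, which had a change of 0.40 that did not pass (adjusted p = 0.15).

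Promoters of 198 members were found in the RefSeq table, at 1 per gene (the first listed where a gene has several). The window runs from 250 bases before to 50 after the start, and motifs were counted on both strands. None of the searched motifs contains another. CCGGAAG was present in 87 of them (43.9%), against 34.5% of the promoters of ZNF genes elsewhere, 13.9% of those of other chromosome 19 genes, 15% of those of the 10748 named genes with a promoter and 10.7% of all 27305 promoters. CCAAT was present in 52.5%, against 34.7% for other chromosome 19 genes, 36% for named genes and 35.7% for all promoters. The TATAAA box was in 2.02%, against 7.19%, 8.49% and 12% in the same order. Promoters of ZNF genes elsewhere lay between, with CCAAT in 43.7%, TATAAA in 4.06% and CACGTG in 6.09%. CACGTG was rarer in members than in the other lists, and the remaining motifs set the members less apart. GGGCGG was in 66.2%, below the 69.2% of other chromosome 19 genes and above the 60.5% of named genes and 44.6% of all promoters. ATGGCG (the core of YY1 sites) was in 18.7%, against 17.3%, 14.7% and 11%, and the NRF1 motif in 12.6%, against 12.5%, 12.2% and 8.78%. TGACGTCA (the cAMP response element) was in 3.54%, against 2.88%, 2.62% and 1.98%, and CACGTG in 4.55%, against 8.95%, 9.02% and 7.43%. Median GC content was 60.0%, above the 58.3% of all promoters but below the 63.3% of named genes and the 64.3% of other chromosome 19 genes. The median number of CpG dinucleotides was 20, against 14, 23 and 22.

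The same motifs were set against the calls. CCGGAAG was in 13 of 28 promoters of members that rose (46.4%), 74 of 164 that did not pass (45.1%) and 0 of 6 that fell. Median changes were 0.16 with and 0.19 without it. Members without GGGCGG had 14 rises among 67 and a median of 0.24, and members with it 14 among 131 and a median of 0.14, whereas over all named genes the medians were 0.01 and 0.02. The order was the opposite over all named genes, of which 8.87% without and 12.7% with GGGCGG rose. CACGTG was in 9 member promoters, of which 3 belonged to genes that rose (ZNF814, ZNF587B and ZNF460). Over all named genes 15.9% with and 10.7% without CACGTG rose. A match is a description of these letters and not a bound site.

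Near-copy promoters were not limited to ZNF814 and ZNF587B. In 17 pairs of members, which involve 24 genes, the windows shared a run of at least 40 identical bases, each pair lying within 1 cluster. Changes had the same sign in 16 of the 17 pairs, ZNF701 (-0.17) and ZNF83 (0.33) being the exception, and ZNF814 with ZNF587B was the only pair of which both passed. With 74.8% of all members positive, most pairs would share a sign anyway, and the 17 pairs reuse genes. Such close copies may also share array probes, which was not tested.

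A list of KRAB corepressors and wider heterochromatin factors had changes in both directions. Of the 35 listed genes 29 were measured, and 9 rose, 3 fell and 17 did not pass. That is 41.4% called, where 29.2% of all genes at or above the median gene passed, and every one of the 29 is that bright. By direction 31% rose and 10.3% fell, beside 17.4% and 11.9% of all genes that bright, so the share that fell was near theirs. EHMT1, an H3K9 methyltransferase, read 7.48, 7.33 and 7.36 in NSC and 8.03, 8.03 and 7.98 in shBRG1 (0.63, SE 0.07, adjusted p = 0.0017). MORC2 (0.48, adjusted p = 0.0038) and PPHLN1 (0.37, adjusted p = 0.0076), which work with and within the HUSH silencing complex, rose, and so did the H3K9 demethylase KDM4C (0.43, adjusted p = 0.0047). MPHOSPH8, a core member of HUSH, had a change of -0.00 (adjusted p = 0.99), and TASOR was not analysed here. The other 5 rises, named after their values were seen, were ATF7IP (0.30), CBX5 (0.31), HDAC2 (0.32), RESF1 (0.29) and EHMT2 (0.32). All 5 lost their call on removal of NSC replicate 2, which left 4 rises and 2 falls. In that fit 6.05% of all genes, dim ones included, rose and 5.77% fell. ATF7IP lost it on removal of each array in turn, RESF1 on removal of any but shBRG1 replicate 2, and after cyclic loess, and EHMT2 on removal of any but shBRG1 replicate 1. CBX5 also lost it on removal of NSC replicate 1 or shBRG1 replicate 1 or 2, and HDAC2 on removal of NSC replicate 3 or shBRG1 replicate 1 or 2, or with probe sets averaged. UHRF1 (-0.41, adjusted p = 0.0087), which guides DNA methylation, TRIM24 (-0.38, adjusted p = 0.012), a relative of TRIM28, and RIF1 (-0.43, adjusted p = 0.032) fell. The RIF1 call was lost on removal of NSC replicate 1 or 2 or shBRG1 replicate 1 or 3. TRIM28 itself, also a chromosome 19 gene, read 8.56, 8.26 and 8.31 in NSC and 8.53, 8.80 and 8.67 in shBRG1, overlapping groups whose change of 0.29 did not pass (SE 0.11, adjusted p = 0.11). CBX1 had a change of -0.03 (adjusted p = 0.86). SETDB1 was not analysed here.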

How the data were processed

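The authors deposited 1 log2 value per probe set for each of 6 arrays. Tools named in the submitters' processing notes are RMA, oligo (1.27), limma (3.19) and R (3.1.0). That values between 1.19 and 13.8 are log2 was inferred from this range. The sources used here do not name the genome build of the probes. Of 52299 probe sets 15828 carried 1 symbol, all updated by gene identifier (GRCh38.p14), giving 14883 genes by the brightest probe set.

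limma 3.58.1 in R 4.3.3 (lmFit, eBayes, two-sided) compared shBRG1 with NSC over all named genes with Benjamini-Hochberg adjustment. With 3 arrays against 3, exact permutation reaches no p under 0.1. The number of arrays limits the precision: the median SE of a member was 0.10. On simulated data with 14883 genes 58 of 100 genes shifted by 0.5 (log2) were called, and 94 of 100 shifted by 1. Of its 164 calls 12 were false. Far fewer genes were shifted there than the 17.0% called in the data, so recovery in the data may differ.

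Members and lists were chosen with earlier results of these data known. Named are the 12 largest rises and falls among called members whose groups do not overlap, the 5 brightest members, the largest rise and fall of each cluster with 5 measured members, and 4 corepressor genes with the smallest p; the other members past the threshold were named after their values were seen. Planned protein features were not run. Alternatives were centring, cyclic loess, a filter on dim genes, averaged probe sets, trend and robust options, array weights, the replicate number as a block, each array left out, an adjusted p of 0.01, a fold of 1.5, and other gaps between clusters. Figures used matplotlib 3.10.9.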

Additional observations from a re-analysis of the deposited data

How the results depend on the processing

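Against 33 higher and 6 lower members, the fit with the replicate number as a block gave 18 and 4 (7.96% higher, where 5.85% of all genes were, and 1.77% lower, where 4.96% were). An adjusted p of 0.01 gave 8 and 1, and the 3.54% higher lay near the 3.78% of all genes (0.442% lower, all genes 3.51%). A fold of at least 1.5 gave 8 and 1 (3.54% higher, all genes 1.86%, and 0.442% lower, all genes 2.17%). Leaving out each array in turn gave 13 to 29 higher and 2 to 5 lower, where 5.64% to 7.09% of all genes were higher and 4.66% to 5.77% lower. Cyclic loess gave 24 higher (10.6%, all genes 8.24%) and 6 lower (2.65%, all genes 8.9%). The remaining settings were within 1.5 times of both counts (27 to 48 higher, 5 to 7 lower). The 48 came from the 155 members kept by the filter on dim genes (31%, all genes in that fit 26.6%). Trend and robust options gave 46 higher (20.4%, all genes 13.3%) and centring 27 (11.9%, all genes 8.63%). Averaged probe sets gave 33 (14.6%, all genes 9.68%) and array weights 32 (14.2%, all genes 9.7%). In these settings 2.21% to 4.52% of members were lower, where 7.1% to 16.4% of all genes were. Of the 39 members past the threshold, 11 kept their call in every refit in which they were tested (10 higher, 1 lower). The sign changed for 0 of the 39. Removal of an array could not change it, because the groups of all 39 did not overlap. Deviations of same-numbered arrays from their group means correlated at -0.04, -0.14 and -0.03 over all named genes, so no shared replicate effect was seen. With 3 arrays per group these values cannot exclude that the cultures were paired. Clusters with at least 5 measured members numbered 9 with a gap of 1 Mb, 10 with 0.5 Mb and 6 with 2 Mb. The values give no detection calls, so changes of dim probe sets may be understated.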
